A study of Mus musculus with 20 samples.

Results

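The genes of the mitochondrial ribosomal proteins were followed in mouse soleus, a slow, oxidative hind-limb muscle. Members were all rows of the count table whose Ensembl identifier maps to a protein-coding mouse gene with a symbol that starts with Mrpl (large subunit) or Mrps (small subunit) and a number. This gave 78 genes of 56941 rows, 49 of the large and 29 of the small subunit. RNA of C57BL/6J mice was sequenced after depletion of ribosomal RNA, with 10 libraries in each of 2 groups. The exposed group went through 14 days of hind-limb unloading (HLU), radiation and a stress given through the diet, and the control group was sham-irradiated. No genetic change is named for either group, and the labels give neither age nor sex. The 3 exposures were given together, so their effects cannot be told apart. The sample taken was the whole soleus of a hind limb, in which fewer cells of a type and less RNA per cell cannot be told apart.

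Mitochondria carry their own ribosome, which translates the few membrane proteins encoded in mitochondrial DNA, all of them subunits of the respiratory chain or ATP synthase. Its RNAs are mitochondrial transcripts, while every one of its proteins is encoded in the nucleus, made in the cytosol and imported. Many of these proteins have a counterpart in bacterial ribosomes and others are found only in mitochondria. Soleus fibres depend on oxidative metabolism and so on a steady supply of the proteins this ribosome makes.

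Library totals lay between 17336017 and 43424464 counts. The members took 31005 to 79086 counts per library, or 0.133% to 0.189% of all counts, and a single member had between 64 and 3650 counts in a library, so all 78 passed the filter on low counts. Muscle markers were abundant in both groups, in CPM (counts scaled to a common library size). Markers of skeletal muscle fibre, 8 in number, summed to 197424 to 245278 CPM in control and 177346 to 255171 CPM in exposed libraries. Most of this sum was titin (Ttn, means of 191420 and 196224 CPM). By the test below, 3 of the 8 were lower in exposed muscle, among them Acta1 (skeletal actin, 15460 to 7238 CPM). Another 3 were higher, among them Ckm (4100 to 9072 CPM). Exposed replicates 1 to 4 stood apart: the summed level of 12 Schwann cell and nerve markers was 534.9 to 1539 CPM there, against 100.2 to 191.3 CPM in exposed replicates 5 to 10 and 99.1 to 200.5 CPM in the controls. Where, for the members or the lists of mitochondrial genes, leaving out these 4 libraries ended a named call or moved a count or median by over 1.5 times, both values are given. The titles number the samples of each group but give no batch and no pairing. The p-values reflect the spread among these 20 samples.

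Nearly the whole set of mitochondrial ribosomal protein genes was lower in exposed muscle. By edgeR's quasi-likelihood test, 75 of 78 members fell, 1 rose and 2 did not pass the threshold of an adjusted p of 0.05 (Benjamini-Hochberg over 16778 genes tested). Across all genes tested the same threshold called 57.6%, with 28.9% lower and 28.7% higher. The median log2 fold change of the members, exposed against control, was -0.44, which is a level 1.36-fold lower, and the quartiles were -0.57 and -0.32. Over all genes tested the median was 0.02 and the quartiles were -0.25 and 0.30. In 71 of 78 members every exposed library lay below the control mean. In 54 members the highest exposed library was below the lowest control library, against 11% of all genes tested, and no member had ranges apart in the other direction (6.48% of all genes tested).

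The fall was present in each exposed library. The summed level of the 78 members was between 1817 and 1915 CPM in the controls and between 1227 and 1454 CPM in the exposed libraries, with means of 1860 ± 35.6 and 1354 ± 81.9 CPM (SD, n = 10 each). The ranges of the groups were far apart relative to the SDs. Exposed replicates 1 to 4 were the lowest, at 1227 to 1291 CPM, and exposed replicates 5 to 10 held 1362 to 1454 CPM, still below every control. Without exposed replicates 1 to 4, 70 members were lower and 1 was higher, against 26.1% and 25.2% of the genes tested there. All 70 were among the 75 called with all libraries. The median log2 fold change of the members was then -0.37, and 76 of 78 members had a smaller fall, or for Mrpl23 a larger rise, by up to 0.14, the exceptions being Mrpl52 and Mrps10. On this scale the libraries with more nerve RNA were thus those with the deeper fall, but nerve RNA was not all that set them apart. The factors that scaled the libraries (TMM) were 1.054 to 1.16 in exposed replicates 1 to 4 and 0.9455 to 1.011 in exposed replicates 5 to 10. A larger factor gives a lower CPM, so the difference in depth between these libraries depends on the scaling. Adipocyte markers summed to a mean of 212.9 CPM in exposed replicates 1 to 4 and 104.8 CPM in exposed replicates 5 to 10. Skeletal muscle fibre markers summed to means of 200095 and 233055 CPM. The part of any of these in the deeper fall was not tested.

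**Figure D1:**
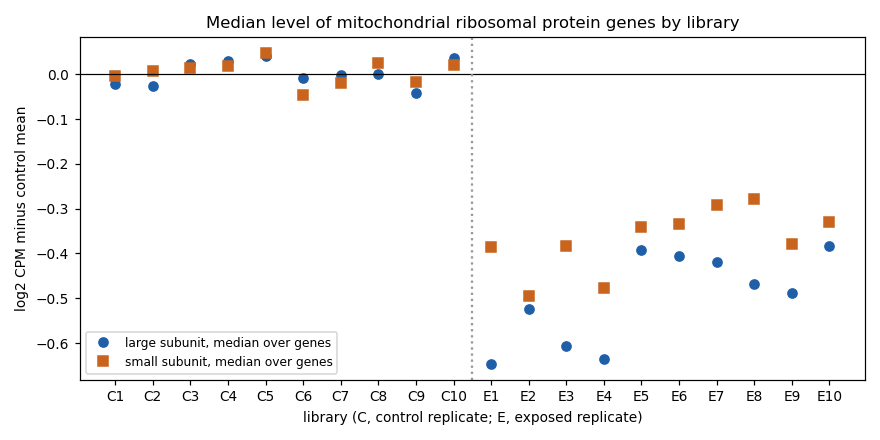
Median over large subunit genes (circles) and over small subunit genes (squares) of log2 CPM minus the gene's control mean, for each control (C) and exposed (E) library. Controls lay between -0.05 and 0.05, every exposed library lay at -0.28 or below, and the large subunit was the lower of the pair in each exposed library.

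Both subunits fell, the large subunit by more. Of the 49 large subunit genes 48 were lower and 1 was higher, with a median log2 fold change of -0.49 (1.40-fold lower) and quartiles of -0.68 and -0.37. Of the 29 small subunit genes 27 were lower and 2 were not called, with a median of -0.38 (1.30-fold lower) and quartiles of -0.48 and -0.26. The set of large subunit genes thus had the deeper quartiles as well as the deeper median. Falls of 1.5-fold or more were seen in 16 large and 3 small subunit genes, and ranges were apart in 37 of 49 and 17 of 29. Per library, the median of the large subunit relative to the control mean was -0.65 to -0.38 in exposed muscle and that of the small subunit -0.50 to -0.28. The large-minus-small difference of these medians was negative in all 10 exposed libraries, from -0.26 to -0.03, and lay between -0.03 and 0.04 in the controls. These ranges overlapped, with exposed replicate 2 at -0.027 and control replicate 2 at -0.033. Large subunit genes summed to 1277 CPM in control and 905 CPM in exposed muscle, and small subunit genes to 583 and 449 CPM. The ratio of these sums was 2.16 to 2.24 in the controls and 1.93 to 2.07 in the exposed libraries, so the groups did not overlap. It was 1.98 to 2.07 in exposed replicates 5 to 10. The medians without exposed replicates 1 to 4 were -0.41 for the large and -0.34 for the small subunit, and the large-minus-small difference of medians shrank from -0.11 to -0.07. The subunits are sets of genes and not of samples, and the difference between them was not given a test.

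The symbols do not match the assembled particle in every case. In structures of the mammalian particle the products of Mrps30 and Mrps18a sit in the large subunit, and the product of Mrps36 belongs to the oxoglutarate dehydrogenase complex of the citric acid cycle. Sorted this way, 50 of 51 large subunit genes were lower with a median log2 fold change of -0.49, and 24 of 26 small subunit genes with a median of -0.38. The contrast between the subunit medians therefore had the same size under both ways of sorting. Falls of 1.5-fold or more were then in 17 large subunit genes and 1 small subunit gene. Genes with a bacterial counterpart and genes found only in mitochondria fell in similar shares: 43 of 45 with a median of -0.44, and 31 of 32 with a median of -0.46. Among the large subunit genes found only in mitochondria, all 22 were lower, with a median of -0.51. Among the corresponding small subunit genes 9 of 10 were lower, with a median of -0.36. Among genes with a bacterial counterpart, 28 of 29 of the large subunit (median -0.44) and 15 of 16 of the small subunit (median -0.38) were lower, so the subunits lay closer together there.

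**Figure D2:**
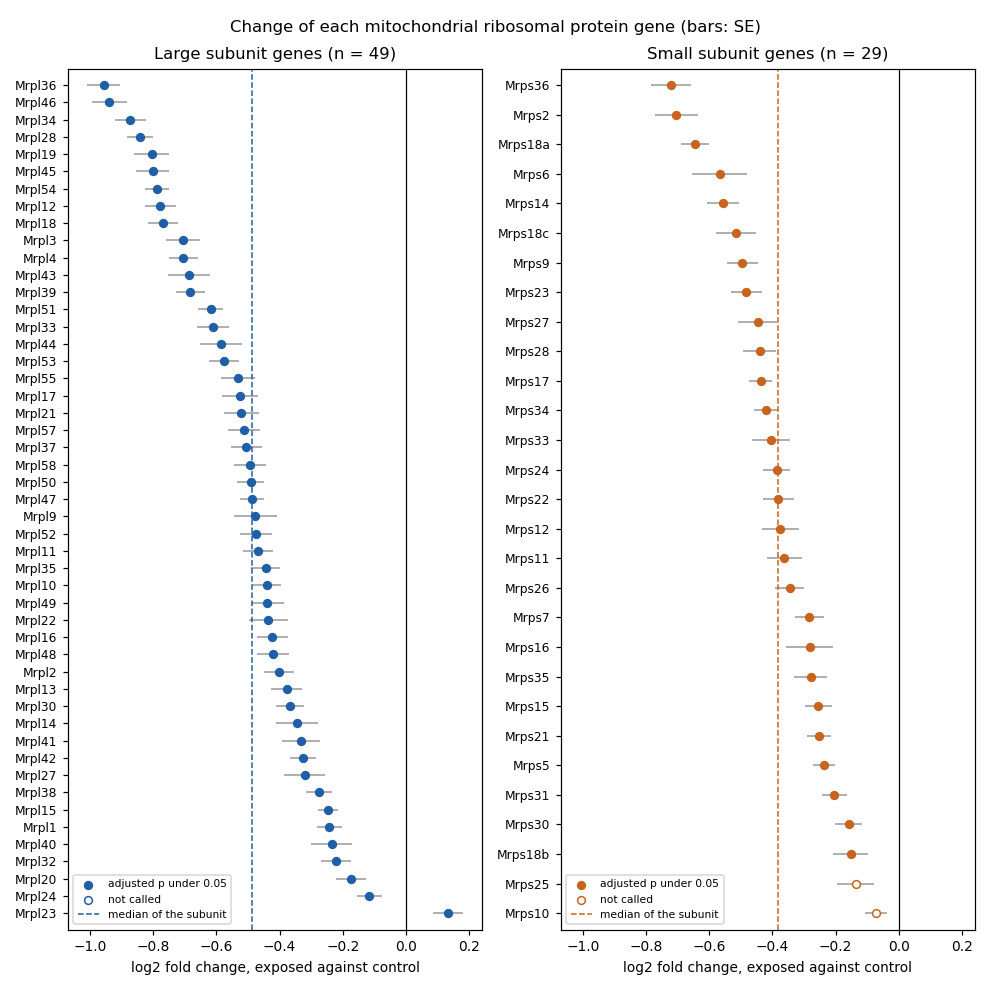
Log2 fold change of each gene, exposed against control, with its SE (bars), for the 49 large subunit genes (left) and the 29 small subunit genes (right). Filled points passed an adjusted p of 0.05 by edgeR, open points did not, and dashed lines mark the subunit medians of -0.49 and -0.38.

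The deepest falls were those of Mrpl36 and Mrpl46. Mrpl36, a very small protein with a bacterial counterpart, was at 11.2, 11.9 and 13.3 CPM (lowest, median and highest library) in the controls and at 5.37, 6.38 and 7.03 CPM in the exposed group. The highest exposed library thus lay well under the lowest control. Its log2 fold change was -0.96 ± 0.05 (SE of the difference of group means, used throughout), a level 1.94-fold lower (edgeR adjusted p = 1.58e-12). Mrpl46, a mitochondria-specific protein of the central protuberance on top of the large subunit, was at 9.60, 10.9 and 12.5 CPM in the controls and 4.90, 5.94 and 6.31 CPM in the exposed group. Its log2 fold change was -0.94 ± 0.06 (edgeR adjusted p = 4.61e-12). In both genes, then, no exposed library reached a control library.

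Mrpl34 and Mrpl28, each with a bacterial counterpart, followed. Mrpl34 was at 14.3, 14.9 and 17.4 CPM in the controls and 6.92, 8.47 and 9.16 CPM in the exposed libraries, a log2 fold change of -0.87 ± 0.05 (edgeR adjusted p = 1.31e-12). Mrpl28 was at 21.8, 23.6 and 25.4 CPM against 12.0, 12.8 and 14.8 CPM, a log2 fold change of -0.84 ± 0.04 with the smallest adjusted p of these genes (2.38e-13). Their exposed and control ranges did not overlap. Mrpl19, whose bacterial counterpart lies at the interface of the subunits, went from a mean of 18.3 ± 1.19 to 10.5 ± 1.07 CPM (SD, n = 10 each), a log2 fold change of -0.80. Mrpl45, which sits at the exit of the peptide tunnel and ties the ribosome to the inner membrane, had 28.5, 32.1 and 34.2 CPM in the controls and 15.9, 19.1 and 20.2 CPM in the exposed libraries. The log2 fold change of Mrpl45 was also -0.80 (edgeR adjusted p = 4.55e-12). Mrpl54, a mitochondria-specific large subunit protein, went from 20.6 ± 0.80 to 11.9 ± 0.88 CPM, a log2 fold change of -0.79 ± 0.04.

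Mrpl12 and Mrpl18 joined the deepest falls to high levels. Mrpl12 encodes the mitochondrial counterpart of the bacterial stalk protein that recruits translation factors, and has been reported to bind the mitochondrial RNA polymerase as well. It was at 60.3, 66.4 and 70.4 CPM in the controls and 34.3, 38.2 and 42.98 CPM in the exposed group, a log2 fold change of -0.78 ± 0.05 (edgeR adjusted p = 1.57e-12). Mrpl18, the counterpart of a bacterial protein of the central protuberance, was at 39.9, 44.0 and 48.2 CPM against 21.8, 26.9 and 28.3 CPM, with a log2 fold change of -0.77. For both genes the gap between the groups was wider than either group's own range. A further pair of large subunit genes was described for what is known of them. Mrpl44, whose protein has an RNase III-like fold, had a log2 fold change of -0.59 (17.1 to 22.4 CPM in control, 10.1 to 15.3 CPM in exposed libraries). Mrpl58, a peptidyl-tRNA hydrolase built into the large subunit that frees stalled chains, had -0.49 (17.7 to 21.03 against 11.7 to 16.4 CPM).

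In the small subunit the symbol with the deepest fall was Mrps36, the gene of the oxoglutarate dehydrogenase component. It was at 17.0, 20.2 and 23.0 CPM in the controls and 9.65, 12.5 and 14.2 CPM in the exposed libraries, a log2 fold change of -0.72 ± 0.06 (edgeR adjusted p = 4.63e-10). Mrps2, with a bacterial counterpart in the body of the small subunit, was at 14.9, 18.3 and 20.98 CPM against 9.22, 11.3 and 12.7 CPM, a log2 fold change of -0.70 ± 0.07 (edgeR adjusted p = 2.70e-09). Ranges did not overlap for either gene. Mrps14 (20.3 ± 0.79 to 13.8 ± 1.46 CPM), Mrps9 (29.0 ± 1.68 to 20.6 ± 1.77 CPM) and Mrps23 (50.9 ± 4.08 to 36.5 ± 2.75 CPM) fell by log2 values of -0.56, -0.50 and -0.48, and in each the ranges were apart. Mrps6 was at 3.16 to 5.48 CPM in the controls and 2.45 to 3.62 CPM in the exposed libraries. Its ranges overlapped and its log2 fold change was -0.57 ± 0.09 (edgeR adjusted p = 8.32e-06).

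The paralogues Mrps18a, Mrps18b and Mrps18c, which are related to the same bacterial small subunit protein and take different places in the particle, differed in size of change. Of these, Mrps18c takes the place of the bacterial protein and is counted above among genes with a bacterial counterpart, and Mrps18a and Mrps18b are counted as mitochondria-specific. Mrps18a, in the large subunit, was at 35.1 to 39.8 CPM in the controls and 20.4 to 26.8 CPM in the exposed group, a log2 fold change of -0.64 ± 0.04. Mrps18c was at 6.09 to 8.31 CPM against 4.25 to 5.72 CPM, a log2 fold change of -0.52 ± 0.06. Mrps18b had a log2 fold change of -0.15, with an edgeR adjusted p of 0.0244 that rose to 0.276 without exposed replicates 1 to 4 (log2 fold change -0.09). Mrps30, the other Mrps symbol of the large subunit, was also among the smaller changes, at 23.1 to 28.9 CPM in control and 21.3 to 26.9 CPM in exposed libraries. Its log2 fold change was -0.16 (edgeR adjusted p = 0.00442), and -0.10 without exposed replicates 1 to 4 (adjusted p = 0.114). The calls of Mrpl40, Mrpl20 and Mrpl24 were lost in the same way, with log2 fold changes of -0.17, -0.13 and -0.09 (adjusted p = 0.0525, 0.0789 and 0.157). For Mrpl27, Mrps16 and Mrpl32 the log2 fold change shrank by more than 1.5 times and the call held. It went from -0.32 to -0.21 for Mrpl27, from -0.28 to -0.19 for Mrps16 and from -0.22 to -0.14 for Mrpl32. Other settings ended calls too. With library size alone as the scaling, Mrpl24, Mrpl20, Mrps30 and Mrps18b were not called (edgeR adjusted p = 0.572, 0.207, 0.108 and 0.209). With upper-quartile scaling Mrpl24, Mrpl20 and Mrps18b were not (0.271, 0.0757 and 0.148). Mrpl24 also lost its call with the DESeq2 test (adjusted p = 0.0507) and without control replicate 10 or exposed replicate 3 or 6 (edgeR, 0.0505 to 0.0581).

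The members not called lower were Mrps25, Mrps10 and Mrpl23. Mrps25 was at 13.8, 15.5 and 16.4 CPM in the controls and 11.9, 13.9 and 17.7 CPM in the exposed libraries (log2 fold change -0.14, edgeR adjusted p = 0.0528). A single exposed library, replicate 6, was above all controls, and without it the log2 fold change was -0.18 with an adjusted p of 0.00469. The other 9 exposed libraries were below the control mean. Mrps25 also passed the threshold with limma-voom (adjusted p = 0.0366), with the replicate block (0.0448) and without control replicate 3, 4 or 5 or exposed replicate 3 or 8 (0.0346 to 0.0465). Of its exon bases, 69.8% lie opposite exons of Nr2c2, which rose from 61.2 ± 3.80 to 77.1 ± 4.03 CPM (log2 fold change 0.33), and the part of Nr2c2 reads in the counts of Mrps25 was not tested. Mrps10 was at 14.2, 15.3 and 16.6 CPM against 13.4, 14.8 and 16.0 CPM, a log2 fold change of -0.07 ± 0.03 (adjusted p = 0.144). With library size alone in place of the scaling used here its log2 fold change was 0.01. Mrpl23 was the member that rose. It was at 12.1, 12.9 and 15.3 CPM in the controls and 13.0, 14.2 and 16.4 CPM in the exposed libraries, a log2 fold change of 0.13 ± 0.05 (edgeR adjusted p = 0.0309). The ranges overlapped, and 9 of 10 exposed libraries were above the control mean. Its call was lost when any of control replicates 3 and 7 or exposed replicates 5, 6, 7 and 8 was left out (adjusted p 0.0548 to 0.0651). Without exposed replicates 1 to 4 its log2 fold change was 0.19 (adjusted p = 0.00903).

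Mrpl23 lies near imprinted genes and genes of fast muscle, and its neighbours were looked at after its value was seen. Tnnt3 and Tnni2, troponin genes of fast fibres, rose with log2 fold changes of 0.39 and 0.38. The muscle RNA Nctc1 rose by 1.09, with exposed libraries at 123.2 to 255.9 CPM and controls at 77.9 to 115.2 CPM. H19, an imprinted non-coding RNA, fell by 1.99 on the log2 scale (1366 to 343 CPM), and Igf2 fell by 0.40. Igf2 was not called without exposed replicates 1 to 4 (-0.29, edgeR adjusted p = 0.169). Lsp1 was not called (0.15, edgeR adjusted p = 0.152). Genes next to Mrpl23 thus changed in both directions.

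**Figure D3:**
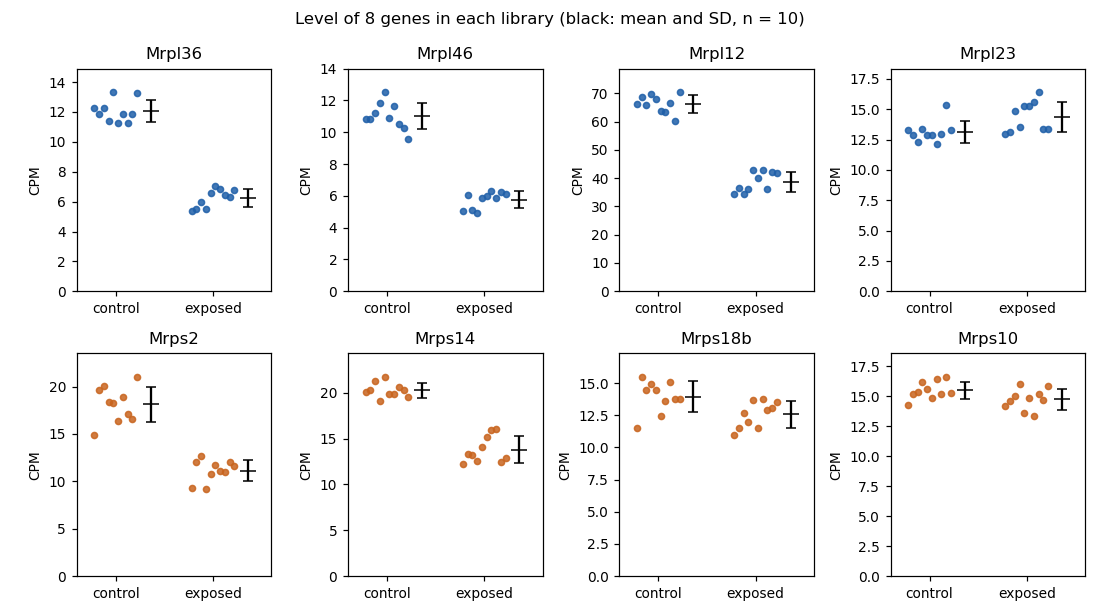
CPM in each control and exposed library (points) with mean and SD (black, n = 10) for 4 large subunit genes (blue) and 4 small subunit genes (orange). The groups are apart for Mrpl36, Mrpl46, Mrpl12, Mrps2 and Mrps14 and overlap for Mrpl23, Mrps18b and Mrps10.

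Levels of different members can be compared only per length of transcript. On the scale of CPM per kb of annotated exon, control levels ran from 2.53 to 43.3 in the large subunit (median 9.74) and from 1.92 to 37.7 in the small subunit (median 6.21). Mrpl12 (43.3 ± 2.07), Mrpl14 (35.2 ± 2.03) and Mrpl18 (31.4 ± 1.79) were the highest of the large subunit. The control ranges of Mrpl12 and Mrpl14 did not overlap (39.4 to 45.9 and 32.2 to 38.3 CPM per kb). Mrps21 (37.7 ± 1.58), Mrps23 (32.6 ± 2.62) and Mrps28 (18.4 ± 0.92) were the highest of the small subunit. This order depends on the length used. With the median length of protein-coding transcripts in the basic annotation, chosen after seeing that some members carry long annotated exons, Mrpl42 had the highest control level at 126.9 CPM per kb and Mrpl12 was at 50.4. High level and deep fall did not go together in every case: by log2 fold change, Mrpl14 changed by -0.34, Mrps21 by -0.25 and Mrps28 by -0.44.

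The starts of these genes were read for short motifs known from promoters of nuclear genes for mitochondrial proteins. RefSeq windows on GRCm38.p6, from 250 bases before to 50 bases after the start, were at hand for 69 of 78 members. The motif of NRF1 (nuclear respiratory factor), GCGCANGCG, was present in 16 members (23.2%), against 6.25% of all 32851 windows and 14.4% of the 10844 tested genes with a window. The ETS motif bound by GABPA, CCGGAAG, was in 26 members (37.7%, against 8.86% and 18.9%). The YY1 motif, AANATGGCG, was in 11 members (15.9%, against 2.38% and 5.58%). The motif of the oestrogen-related receptors, TCAAGGTCA, was found in none, and in 0.423% of all windows and 0.304% of tested genes. Both strands were searched, matches of different motifs were counted separately, and a gene counted once per motif. In all, 43 members (62.3%) held at least 1 of the 4 motifs, against 33.5% of tested genes. A match is a run of letters and not a measured binding site. Stretches before the RefSeq start are shown for 5 of the 9 large subunit genes with the deepest falls, each with a match to the NRF1, ETS or YY1 motif (capitals, on either strand), and for Mrpl23, the member that rose, where none of the 4 motifs was found. Of the other 4, Mrpl46 and Mrpl28 have a window with none of the 4 motifs, as Mrpl23 has, and Mrpl19 and Mrpl54 have no window. All run 5′ to 3′ on the strand of the gene. Bases in annotated exons of any gene were left out. In Mrpl36 and Mrpl18 the match itself lies in such an exon, and there it is shown with 10 bases on either side.
Mrpl36 (chr13:73330968-73330996, plus strand, motif of YY1): cgtgaccttaCGCCATCTTtcttcctggc
Mrpl34 (chr8:71464816-71464925, plus strand, motif of ETS): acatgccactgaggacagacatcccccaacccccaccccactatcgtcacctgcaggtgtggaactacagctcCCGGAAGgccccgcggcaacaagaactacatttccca
Mrpl45 (chr11:97315586-97315715, plus strand, motif of NRF1): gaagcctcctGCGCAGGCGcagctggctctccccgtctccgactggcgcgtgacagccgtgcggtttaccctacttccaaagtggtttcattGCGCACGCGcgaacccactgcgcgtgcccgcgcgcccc
Mrpl12 (chr11:120484527-120484612, plus strand, motif of NRF1): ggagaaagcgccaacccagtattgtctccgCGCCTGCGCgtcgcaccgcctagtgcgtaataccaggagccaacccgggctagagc
Mrpl18 (chr17:12916315-12916341, minus strand, motif of ETS): actgaaaacgCCGGAAGtagggggctg
Mrpl23 (chr7:142532922-142533011, plus strand, no match): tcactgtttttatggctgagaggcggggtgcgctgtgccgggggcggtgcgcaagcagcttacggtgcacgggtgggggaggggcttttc
In Mrpl45 the NRF1 motif occurs 2 times in this stretch, and the YY1 motif of Mrpl36 and the NRF1 motif of Mrpl12 are on the opposite strand.

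The genes that encode these factors differed in direction. By edgeR, 6 of 12 listed regulators fell and 3 rose, against 28.9% lower and 28.7% higher over all genes tested. Nrf1 rose from 15.4 ± 0.68 to 17.8 ± 1.18 CPM (log2 fold change 0.21, adjusted p = 1.60e-04), while Gabpa fell from 56.1 ± 3.21 to 48.9 ± 2.75 CPM (-0.20, adjusted p = 1.32e-04). Gabpb2, a partner of GABPA, rose by 0.52, while Gabpb1, in the same list, fell by 0.26 (adjusted p = 8.76e-05). Yy1 did not pass the test (0.06, adjusted p = 0.158). The oestrogen-related receptors and the coactivator PGC-1α, drivers of oxidative metabolism in muscle, were lower. Esrrg fell from 242.8 to 63.5 CPM (log2 fold change -1.94), Esrrb by 0.93 and Esrra by 0.70, each with exposed libraries below all controls. Ppargc1a fell by 0.73 (adjusted p = 3.51e-04) with overlapping ranges.

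Many members start close to a gene on the other strand. A protein-coding partner that starts within 1000 bases and points the other way was annotated for 33 members. Mrpl46 and Mrps11 are partners of each other and both fell. Of 26 tested partners that are no member, 10 fell, 3 rose and 13 were not called, while all 26 of their members fell. The shares over all genes tested were 28.9% lower and 28.7% higher. The median log2 fold change was -0.08 for the partners and -0.43 for these members. With exposed replicates 1 to 4 left out, 9 partners were lower and 4 higher, 24 of their members were lower, and the medians were -0.03 and -0.36. The partners that fell included Ndufs6 and Ndufb5, subunits of respiratory complex I, next to Mrpl36 and Mrpl47. For Mrpl36 and Ndufs6 the log2 fold changes were -0.96 and -0.50, and for Mrpl47 and Ndufb5 they were -0.49 and -0.88. Sars2, a mitochondrial seryl-tRNA synthetase next to Mrps12, fell by 0.30. Tcp1, a subunit of the cytosolic chaperonin next to Mrpl18, was at 0.06 and not called (edgeR adjusted p = 0.221), and rose by 0.12 without exposed replicates 1 to 4. Fau, next to Mrpl49, rose by 0.24 and encodes a cytosolic ribosomal protein as part of a fusion. The annotation places exons of another gene opposite to exons of 28 members, and reads of both strands may be counted together there, since no source used here gives the strand setting. Of these 28, 27 were lower with a median of -0.44, and of the 50 without such an overlap 48 were lower and 1 was higher, also with a median of -0.44. Exons of another gene on the same strand overlap those of 8 members, by up to 88.0% of a member's exon bases. For Mrps6 these were 19.9% with Gm49711 and 10.4% with Slc5a3. The part of such overlaps in the counts was not tested.

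**Figure D4:**
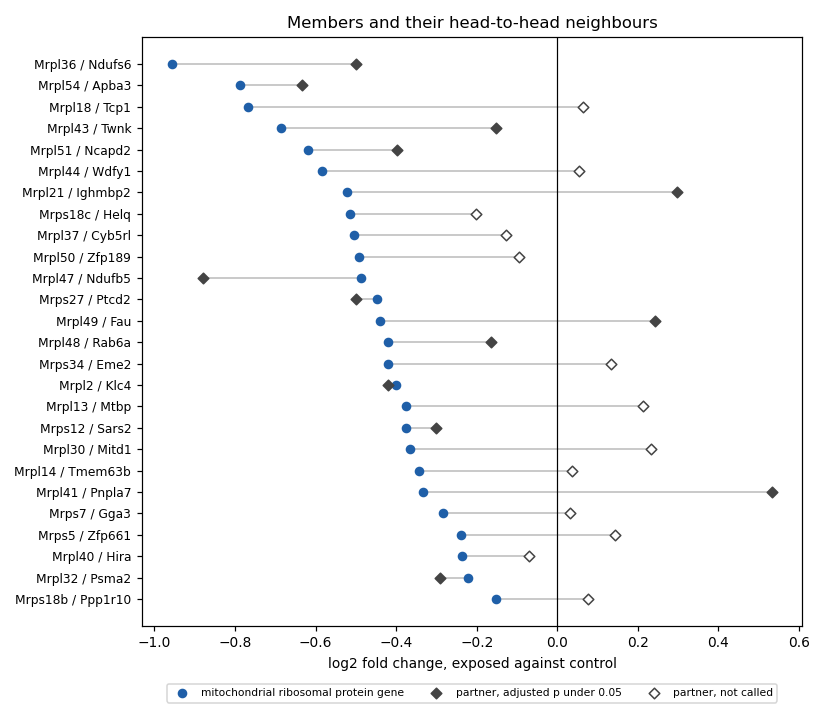
Log2 fold change, exposed against control, of 26 mitochondrial ribosomal protein genes (circles) and of the gene that starts next to each on the other strand (diamonds, filled where it passed an adjusted p of 0.05 by edgeR). All 26 circles are left of 0, while 10 partners fell, 3 rose and 13 were not called.

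Other genes needed for mitochondrial protein synthesis were lower as well. Of 5 mitoribosomal proteins with other names 4 fell (Chchd1, Aurkaip1, Ptcd3 and Gadd45gip1, log2 fold changes of -0.44 to -0.52), and Dap3 was at 31.5 CPM in control and 32.4 CPM in exposed muscle (0.04, edgeR adjusted p = 0.452). Of 28 genes for assembly of the ribosome and modification of its RNA 19 fell and none rose, with a median of -0.27. Mrm1, which methylates the large mitochondrial rRNA, fell by 1.22 on the log2 scale (6.87 to 8.59 CPM in control and 2.498 to 4.33 CPM in exposed libraries). Of 15 translation factors tested 12 fell, with a median of -0.34. Taco1, an activator of translation of the cytochrome oxidase subunit I mRNA, fell from 30.5 ± 2.17 to 14.6 ± 1.98 CPM (-1.07), and Tsfm and Gfm2 changed by -0.88 and -0.40. Of 20 genes for mitochondrial tRNA charging 13 fell, with a median of -0.22, led by Qrsl1 (-0.70), Yars2 (-0.52) and Aars2 (-0.51). Of 22 genes for mitochondrial transcription and RNA turnover 10 fell, with a median of -0.16, led by Supv3l1 (-0.68), an RNA helicase. None of these 5 lists held a gene that rose, and over all genes tested 28.9% fell and 28.7% rose. The counts of lower genes without exposed replicates 1 to 4 were 4 of the other-named proteins, 15 for assembly, 12 translation factors, 10 for tRNA charging and 10 for transcription and turnover. The medians were then -0.41, -0.20, -0.24, -0.14 and -0.08.

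The RNAs made in mitochondria were counted in the same libraries. Of 14 tested, 6 fell and none rose, with a median of -0.40, against 28.9% lower and 28.7% higher over all genes tested. Without exposed replicates 1 to 4, 4 were lower (mt-Nd1 and mt-Co3 were no longer called) and the median was -0.26. In the controls 5 of the 14 had a mean of only 0.82 to 6.82 CPM, against at least 730.2 CPM for the other 9, and how reads of these RNAs were assigned is not known. Of the 9, 5 fell, with a median of -0.35. The rRNA of the small subunit, mt-Rnr1, was at 5189 to 9179 CPM in control and 4285 to 6907 CPM in exposed libraries (log2 fold change -0.37, edgeR adjusted p = 0.00124, and -0.24 without exposed replicates 1 to 4, still called). The rRNA of the large subunit, mt-Rnr2, was at 7817 to 16166 CPM against 7884 to 18254 CPM (-0.14, adjusted p = 0.381). Both groups thus spanned nearly the same range for mt-Rnr2. The libraries were depleted of ribosomal RNA, so the levels of these rRNAs are those left after depletion. mt-Co1, subunit I of cytochrome oxidase, fell from 36342 ± 2949 to 23652 ± 3305 CPM (-0.62, adjusted p = 3.43e-07).

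**Figure D5:**
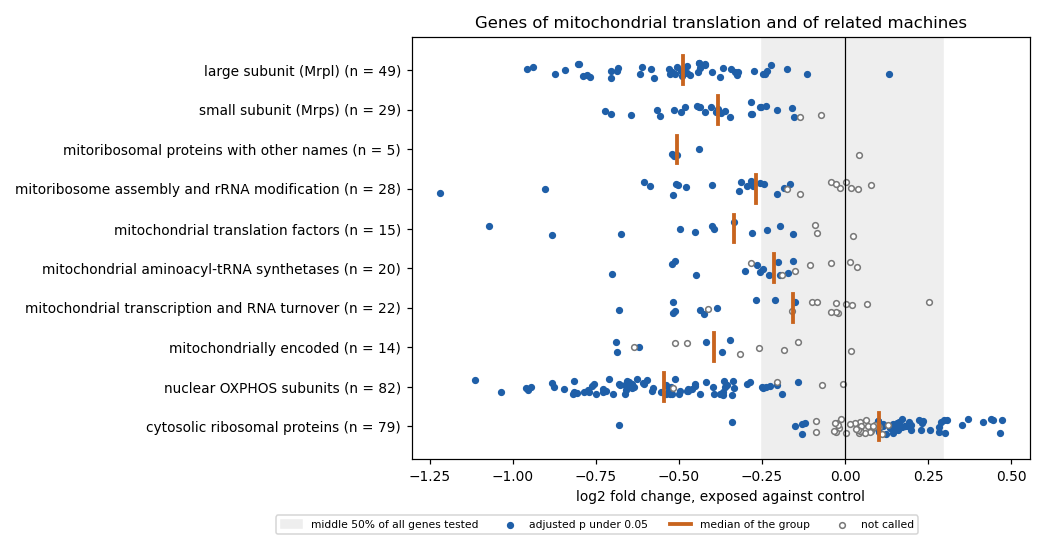
Log2 fold change of each tested gene (points, filled where called by edgeR) in the groups of genes named on the left, with the median of each group (orange line) and the middle 50% of all tested genes (grey). The large and small subunit lie at medians of -0.49 and -0.38, between the nuclear OXPHOS genes at -0.55 and the cytosolic ribosomal protein genes at 0.10.

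Cytosolic ribosomal protein genes, whose products form the ribosome outside mitochondria, gave other counts. Of 79 cytosolic ribosomal protein genes tested 41 rose and 6 fell, with a median log2 fold change of 0.10. The shares over all genes tested were 28.7% higher and 28.9% lower. With exposed replicates 1 to 4 left out, 42 were higher and 2 lower. Rpl12 rose by 0.44 (104.5 to 142.2 CPM) and Rps13 fell by 0.68 (110.8 to 69.2 CPM). Nuclear genes for subunits of oxidative phosphorylation (OXPHOS), whose mitochondrial partners this ribosome makes, were lower in 78 of 82 cases and higher in none, with a median of -0.55. Uqcrq fell by 0.96 and Cox6b1 by 0.77. No test was made between these lists.

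Markers of fibre type also differed between the groups. All 9 markers of slow and oxidative fibres fell and 9 of 10 markers of fast fibres rose. The summed level of the slow and oxidative list was 31892 to 42036 CPM in control and 8538 to 18670 CPM in exposed muscle, and that of the fast list 15655 to 23209 and 53994 to 71656 CPM. Myh2, the myosin of fast oxidative fibres, fell from 10020 to 320.9 CPM, and Myh4, the myosin of the fastest fibres, rose from 647.4 to 13538 CPM. The groups therefore differed in fibre type markers in each library, and the part of this in the fall of the members was not tested. All 12 Schwann cell markers rose with all libraries, and without exposed replicates 1 to 4 there were 5 that rose and 1 that fell. Markers of fibroblasts summed to 1319 to 2582 CPM in control and 1148 to 1895 CPM in exposed libraries, those of endothelium to 588 to 720 and 516 to 617 CPM, those of macrophages and leukocytes to 67.3 to 122.1 and 85.5 to 164.8 CPM, those of adipocytes to 84.5 to 232.9 and 73.6 to 332.2 CPM, and those of smooth muscle and pericytes to 755 to 873 and 723 to 809 CPM. The summed ranges of these lists overlapped between the groups, but single markers changed. Of 10 fibroblast and matrix genes 6 fell and 3 rose: Col1a1 (283.1 to 63.1 CPM), Col1a2, Col3a1 and Postn (51.8 to 8.37 CPM) had exposed libraries below all controls, while Dcn, Gsn and Pdgfra rose. Of 10 endothelial genes 3 fell (Kdr, Flt1 and Emcn) and Cldn5 rose. Of 10 macrophage and leukocyte genes 3 rose, of 6 adipocyte genes 1 rose, and of 7 smooth muscle and pericyte genes 1 rose and 1 fell. Over all genes tested 28.9% fell and 28.7% rose. The counts of the endothelial, macrophage, adipocyte and smooth muscle lists were near or below these shares. The falls of fibroblast and endothelial genes were still called with exposed replicates 1 to 4 left out, and the rise of the adipocyte gene (Retn) was not. The part of these changes in the fall of the members was not tested.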

How the data were processed

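The authors deposited raw read counts per Ensembl gene, made with Subread and featureCounts 1.5.1 on GRCm39 per the submitters' processing notes, which also name MultiQC 1.15 and edgeR. No source used here gives the annotation release, the strand setting or how reads matching several genes were treated. Names, gene classes, exon lengths and neighbours came from GENCODE M21 (GRCm38), matched by identifier for 52000 of 56941 rows with 97.6% of counts. Promoter windows came from RefSeq (GRCm38.p6). Annotated pseudogenes of members, 5 in number, held at most 0.915% of the counts of gene and pseudogene.

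The analysis used edgeR 4.0.16 in R 4.3.3, with filterByExpr (minimum count 10, minimum total 15), TMM scaling, robust quasi-likelihood fits over all 20 libraries and Benjamini-Hochberg adjustment. CPM used TMM-scaled library sizes and log2 CPM a prior count of 2. The procedure was also run on simulated counts with the mean levels and library sizes of these data and a single spread for all genes. Few genes were changed there and no subgroup like exposed replicates 1 to 4 was made. That run therefore does not measure the error rate in these data. Alternatives used limma 3.58.1, DESeq2 1.42.0, other scalings, filters and thresholds, single libraries left out, exposed replicates 1 to 4 left out and the replicate number as a block. The length of the basic transcripts was chosen after seeing the data. No library columns were identical (Spearman 0.934 to 0.956).

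The members and the gene lists were chosen with earlier results of these data known, and lists are described by counts and medians without a test. Genes named were the 8 deepest falls in each subunit, members that rose or were not called, the 3 highest per kb in each subunit, members chosen for what is known of them, and of each other list the 3 genes with the smallest p with Nrf1, Gabpa, Yy1, Esrra, Ppargc1a, mt-Rnr1 and mt-Rnr2. Mrpl18 is among the named by its level. The neighbours of Mrpl23, the head-to-head pairs and members whose call or size depended on a setting were named after their values were seen, as were Dap3, Gabpb1, Nr2c2, mt-Nd1, mt-Co3 and further markers. A gene that this rule takes is not reported here.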

Additional observations from a re-analysis of the deposited data

Results flagged for a closer look

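Within groups of 10 libraries, 18 of 176 groups looked at held a library whose gap to its nearest neighbour was larger than Dixon's 95% critical share of the group's range, where chance gives about 1 in 20. Of the members, Mrpl34 had a high control replicate 3 (17.4 CPM, next 15.7), Mrpl23 a high control replicate 9 (15.3, next 13.4) and Mrps25 a high exposed replicate 6 (17.7, next 14.9). Control replicate 3 was also high for Qrsl1 (20.8 CPM) and Kdr (132.3) and low for Rpl10a (34.9). Control replicate 9 was low for mt-Cytb (5520 CPM). Exposed replicate 10 was high for Ppargc1a (140.8 CPM) and Myh2 (1035). Control replicate 10 was high for the nerve marker Cldn19 (4.02 CPM). Control replicate 5 was low for Myh1 (1632 CPM) and high for Ndufb5 (191.6). Exposed replicate 4 was high for the adipocyte genes Adipoq (51.6 CPM) and Fabp4 (138.5), and control replicate 2 for Retn (8.64). The others were Col1a1 in control replicate 6 (638.4 CPM), Flt1 in exposed replicate 7 (142.9) and Lyz2 in exposed replicate 1 (53.5).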

How the results depend on the processing

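With library size alone the median log2 fold changes were -0.36 (all members), -0.41 (large) and -0.30 (small subunit), and Mrps10 turned to 0.012. Upper-quartile scaling gave -0.32 for the small subunit. Without exposed replicates 1 to 4 the medians were -0.37 for all members, -0.41 for the large and -0.34 for the small subunit, mt-Rnr2 turned to 0.056 and the adipocyte gene Adipoq to -0.16. The number of members that rose, all of the large subunit, was 0 with no filter, with the replicate block, with a fold of at least 1.2 required and at an adjusted p under 0.01, and 0 to 1 with single libraries left out. Requiring a fold of at least 1.2 left 37 large and 16 small subunit members lower (14.8% of all genes tested). The replicate number as a block gave 48 large and 28 small subunit members lower. Same-numbered libraries did not deviate together (correlations -0.13 to 0.10, with 0 controls matching their own number best), so they share only a number. The counts of lower members were within 1.5 times the main counts under the other alternatives. Every member had at least 64 counts in each library.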
